A study of Mus musculus with 11 samples.

Results

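The nuclear genes of oxidative phosphorylation were examined for peaks of Runx3 and Brn3a at their promoters. They were taken by symbol from the protein-coding genes of GENCODE M21, as those starting with Nduf, Uqcr, Cox4 to Cox8 or Atp5 together with Sdha, Sdhb, Sdhc, Sdhd, Cycs and Cyc1. This gave 95 genes of 21829 nuclear gene symbols with an annotated coding transcript. The symbols also take in 8 complex I assembly factors (Ndufaf genes) and 8 isoforms known for restricted tissues. Without these 16 genes, 79 broadly used subunit genes remained.

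Runx3, a RUNX-family transcription factor, and Brn3a, a POU-homeodomain factor encoded by Pou4f1, had been mapped by CUT&RUN, in which an antibody-tethered nuclease releases the DNA around a bound protein. The cells were TrkC neurons of dorsal root ganglia (DRG) at E12.5, counted in days of embryonic age, sorted by green fluorescent protein (GFP) from Runx3-BAC-GFP-CB6 transgenic embryos, and all groups share this transgene. The 11 libraries comprised 3 with anti-Runx3, 4 with anti-Brn3a, 3 with anti-H3K27Ac and 1 with normal rabbit serum. GFP is driven by a Runx3 bacterial artificial chromosome (BAC), so the population is defined by that reporter, and any other cell in which it is active would be sorted too.

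The data are 1 merged list of peak positions for each factor, with no height and no value per library. The Runx3 list holds 25883 nuclear peaks found in at least 2 of 3 libraries, and the Brn3a list 32887 found in at least 2 of 4. The read depth behind them is unknown. Peaks give positions and not transcript levels, so the labelled cell type could not be checked by its markers. At the genes that name these neurons, Runx3 itself had 5 Runx3-list and 6 Brn3a-list promoter peaks, Pou4f1 0 and 1, and Ntrk3, which encodes TrkC, had none. Isl1, looked up as well, had 1 Runx3-list and 0 Brn3a-list promoter peaks, and Etv1 had 2 and 1. A promoter peak is one whose centre lies within 1000 bp of the start of any coding transcript of the gene. No list of the serum library and no separate H3K27Ac list were analysed here, so no background from control serum stands beside these counts.

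Oxidative phosphorylation passes electrons from NADH (complex I) or succinate (complex II) through complex III and the carrier cytochrome c to oxygen at complex IV. The proton gradient built on the way drives ATP synthase, complex V. Most subunits are encoded in the nucleus and a few in the mitochondrial genome. In mammals the nuclear promoters are known for sites of NRF1, of the ETS-family factor GABP and of YY1.

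The sequences beneath several of these peaks are given first, in 5′ to 3′ direction on the strand of the gene and from the GRCm38 genome, leaving out annotated untranslated exons. The first set holds 4 stretches, from the peaks with most RUNX binding site (RBS) words and from the Brn3a-list peak of Ndufa11. The last was chosen for its Brn-family motif V$BRNF, which is given as present with no position. An RBS word is TGTGGT on either strand, or its form TGCGGT, or TGTGGC, which ends in C, or the form with both changes, TGCGGC. Capitals mark RBS words, which appear as their reverse complement where they lie on the other strand. The short Brn3 words TTAATGA and ATTAAT would be marked too, but neither occurs in the 4 stretches. Cycs shows 2 of its peak's 3 RBS words and lies at chr6:50566539-50566788 (minus strand), Cox4i2 at chr2:152753912-152754172 (plus strand), Ndufs7 at chr10:80249205-80249311 (plus strand) and Ndufa11 at chr17:56716978-56717247 (plus strand).
Cycs: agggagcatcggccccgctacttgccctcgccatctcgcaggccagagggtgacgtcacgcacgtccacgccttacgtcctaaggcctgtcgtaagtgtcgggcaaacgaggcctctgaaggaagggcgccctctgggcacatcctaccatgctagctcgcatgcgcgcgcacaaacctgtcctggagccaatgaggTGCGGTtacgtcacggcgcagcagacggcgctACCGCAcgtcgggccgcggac
Cox4i2: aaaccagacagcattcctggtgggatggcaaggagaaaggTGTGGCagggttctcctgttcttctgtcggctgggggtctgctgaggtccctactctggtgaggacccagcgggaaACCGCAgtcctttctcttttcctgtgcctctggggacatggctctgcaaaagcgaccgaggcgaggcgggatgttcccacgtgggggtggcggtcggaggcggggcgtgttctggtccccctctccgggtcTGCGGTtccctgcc
Ndufs7: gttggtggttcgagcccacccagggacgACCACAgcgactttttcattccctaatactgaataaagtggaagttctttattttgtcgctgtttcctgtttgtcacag
Ndufa11: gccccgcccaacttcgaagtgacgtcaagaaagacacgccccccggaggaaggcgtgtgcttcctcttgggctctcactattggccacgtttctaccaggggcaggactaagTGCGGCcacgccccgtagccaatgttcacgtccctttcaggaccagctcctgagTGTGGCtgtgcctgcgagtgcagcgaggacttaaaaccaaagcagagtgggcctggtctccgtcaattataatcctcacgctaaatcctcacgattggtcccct

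The second set shows stretches covered by peaks of both lists, chosen to show where the lists meet, and there capitals mark an RBS word or a word of the promoter factors named above. These are CCGGAA for ETS proteins, GCGCA followed by any base and GCGC for NRF1, and AAGATGG for YY1, on either strand. Atp5l lies at chr9:44920909-44921014 and Ndufs5 at chr4:123718203-123718337, both on the minus strand. Atp5l holds an RBS and an ETS word, and Ndufs5 an NRF1 word and no RBS word.
Atp5l: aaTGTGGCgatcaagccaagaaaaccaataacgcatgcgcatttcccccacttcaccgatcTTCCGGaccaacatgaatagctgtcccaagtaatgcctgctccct
Ndufs5: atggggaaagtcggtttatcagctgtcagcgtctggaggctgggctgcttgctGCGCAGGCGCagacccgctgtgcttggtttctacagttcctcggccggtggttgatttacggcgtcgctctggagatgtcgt

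Runx3-list promoter peaks were found at most of these genes, and Brn3a-list peaks at fewer. Of the 95 genes, 67 (70.5%, Wilson 95% interval 60.7% to 78.8%) had a Runx3-list promoter peak, where 36.2% of all genes had one. A Brn3a-list promoter peak was found at 29 (30.5%, 22.2% to 40.4%), where 20.7% of all genes had one. Both lists had a peak at 24 genes (25.3%, 17.6% to 34.8%), beside 14.8% of all genes. Runx3 without Brn3a was found at 43 genes, Brn3a without Runx3 at 5 (Atp5j, Cox6a1, Cox8b, Ndufa9 and Ndufb4) and neither at 23. Intervals cover the counting of genes only, and no difference between groups of genes was tested. Among the 79 subunit genes alone the counts were 60, 26 and 22.

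**Figure D1:**
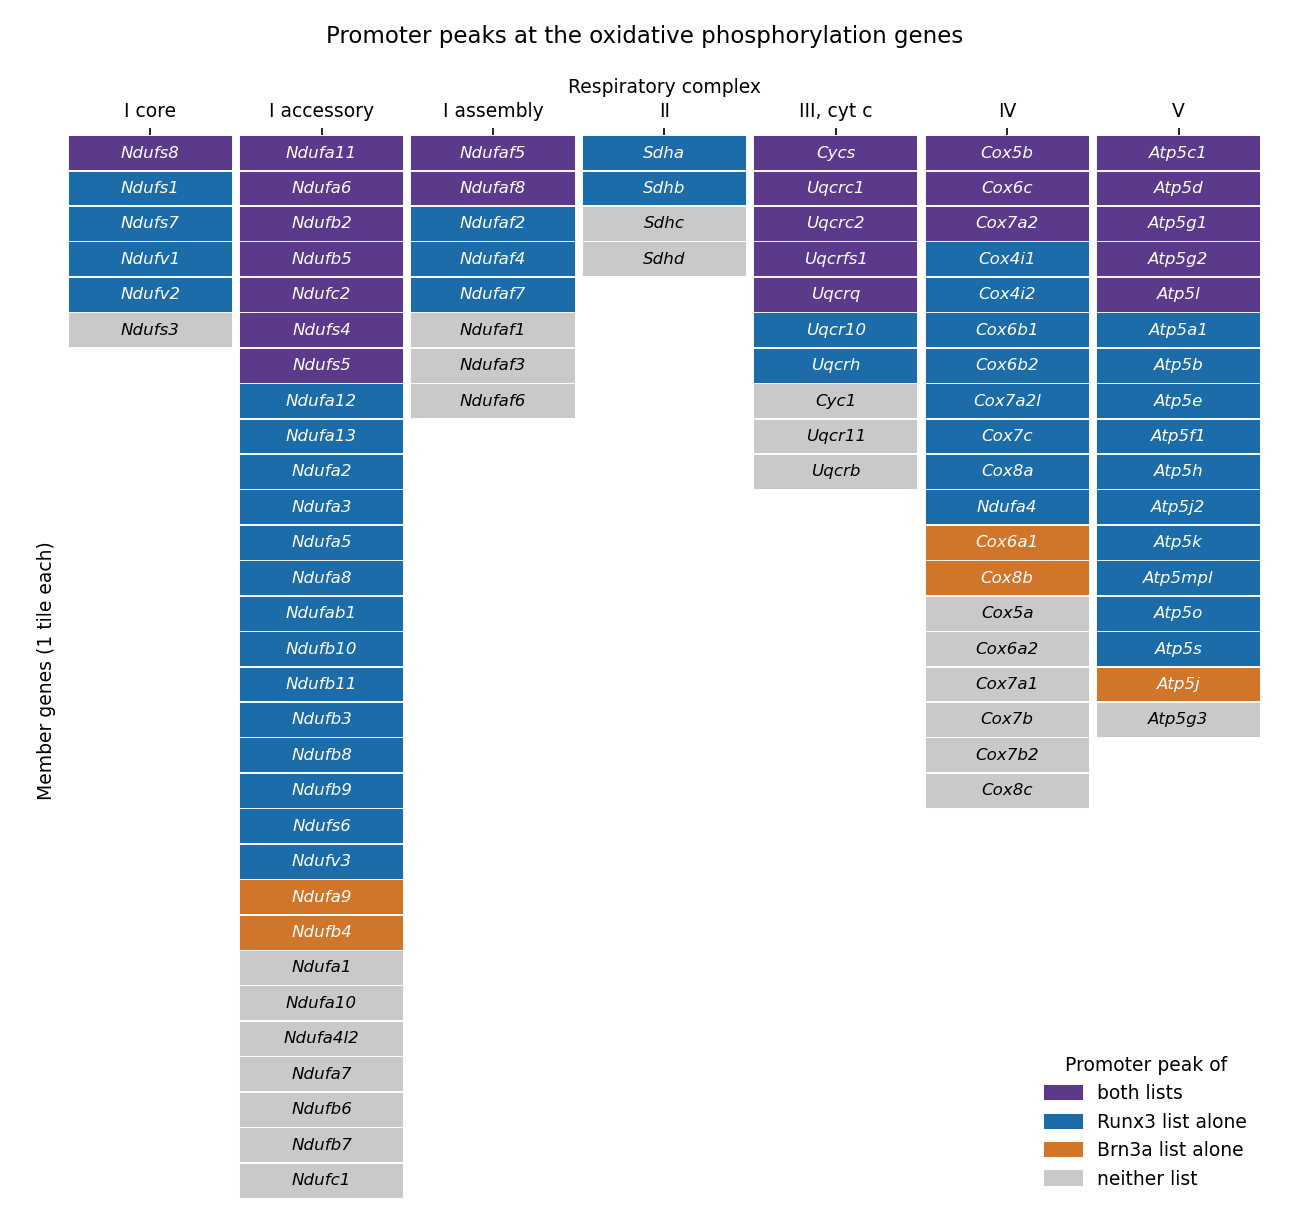
Member genes as 1 tile each, in columns by respiratory complex, coloured by the lists with a promoter peak of the gene. Of 94 tiles drawn, 23 are coloured for both lists, 43 for Runx3 alone, 5 for Brn3a alone and 23 for neither. Every column holds genes with a Runx3-list peak, and complex II has none with a Brn3a-list peak.

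The members were also compared with genes of like CpG content. A promoter was called CpG-rich when the 250 bases before to 50 after the gene's start had at least 50% GC and an observed to expected CpG ratio of at least 0.6. This held for 58 members (61.1%) and for 41.2% of all genes. Of CpG-rich members, 40 (69%, 56.2% to 79.4%) had a Runx3-list peak, beside 60.5% of all CpG-rich genes. For Brn3a there were 19 (32.8%, 22.1% to 45.6%), beside 33.6%, and for both lists 15 (25.9%), beside 25.9%. All 3 intervals took in the share of CpG-rich genes. Of the 37 members that were not CpG-rich, 27 (73%, 57% to 84.6%) had a Runx3-list peak, beside 19.1% of all genes that were not. In the same 37, a Brn3a-list peak was found at 27% (15.4% to 43%), beside 11.7%, and both at 24.3% (13.4% to 40.1%), beside 6.95%. Against this background all 3 intervals lay above the share of such genes, so the members stood near the background among CpG-rich genes and above it among the others. When a gene was called CpG-rich at any of its annotated starts, an alternative chosen after seeing the data, 55 of 73 members (75.3%, 64.4% to 83.8%) had a Runx3-list peak. That was above the 59% of all genes so classed, and the Brn3a share was 34.2% beside 33%. Of the 22 members that were CpG-rich at no start, 12 had a Runx3-list peak (54.5%, 34.7% to 73.1%), where 11.9% of such genes had one. In the same 22, a Brn3a-list peak was found at 4 (18.2%, 7.31% to 38.5%), beside 7.67%, and both at 3 (13.6%, 4.75% to 33.3%), beside 3.82%. The Brn3a interval took in the background here, so under this classing an excess for Brn3a was not shown.

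**Figure D2:**
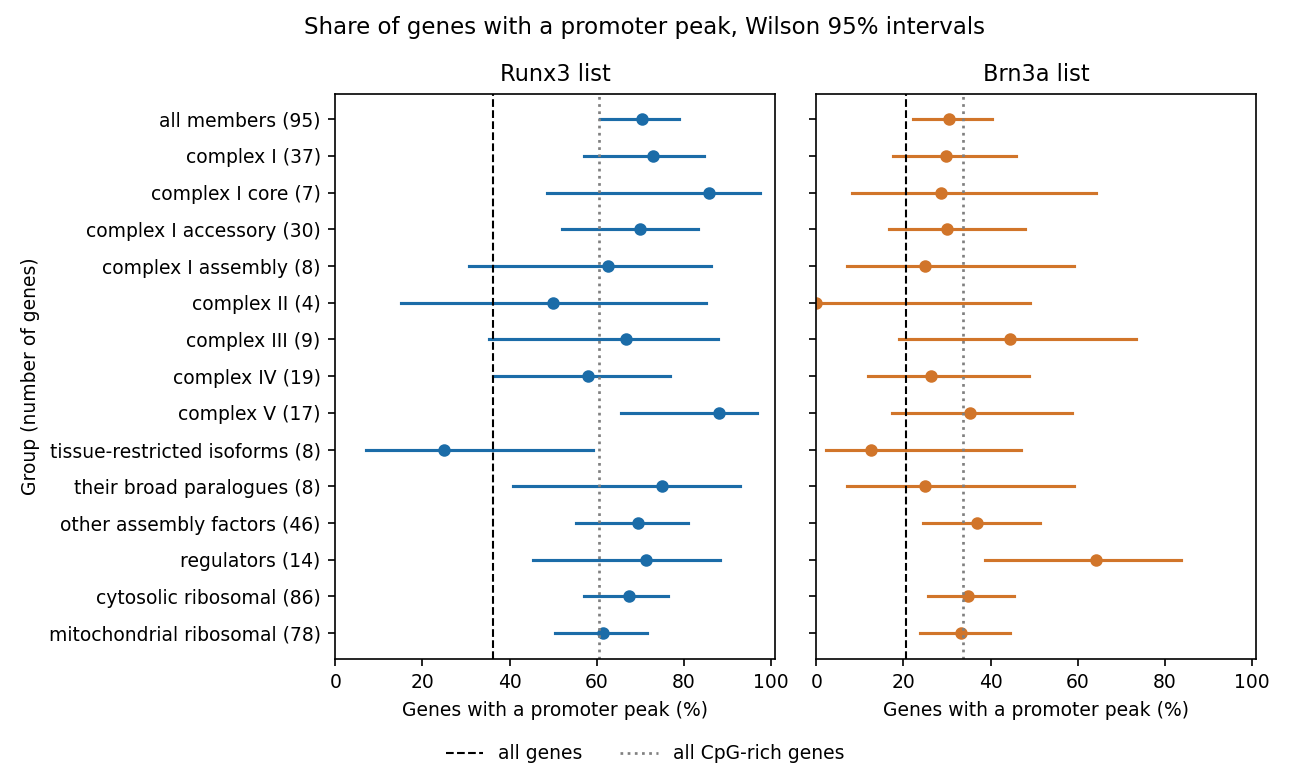
Share of genes with a Runx3-list (left) or Brn3a-list (right) promoter peak by group, as points with Wilson 95% intervals and the number of genes in brackets. Dashed lines mark all genes (36.2% and 20.7%) and dotted lines all CpG-rich genes (60.5% and 33.6%). In the Runx3 list complex V has the highest share of the complexes drawn (88.2%) and the tissue-restricted isoforms a share of 25%.

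The counts by complex below stand beside 36.2% (Runx3) and 20.7% (Brn3a) of all genes, and 60.5% and 33.6% of all CpG-rich genes. The Brn3a-list intervals of complexes I to V all took in both shares. For Runx3, the intervals of complexes I, IV and V lay above the share of all genes, that of complex IV narrowly. Those of complexes II and III and of the Ndufaf genes took it in. Only that of complex V also lay above the share of CpG-rich genes. No difference was tested. Complex I takes electrons from NADH, and its core subunits carry the flavin, the iron-sulphur clusters and the quinone site. Of 7 nuclear core genes, 6 had a Runx3-list promoter peak, and 2, among them Ndufs8, also had a Brn3a-list peak. Ndufs3 had neither. At Ndufv1, which binds NADH and flavin, a peak of 259 bp was centred 39 bp upstream of a start. At Ndufv2 the peak was 325 bp wide and at Ndufs1, the largest subunit, it was 155 bp, and neither held an RBS word. At Ndufs8, an iron-sulphur subunit, the Runx3-list peak measured 424 bp with 2 RBS words and covered the whole 215 bp of the Brn3a-list peak.

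Ndufs7, which lies next to the quinone site, had more RBS words beneath its peaks than any other member. Its Runx3-list peak at chr10:80249196-80249531 was 336 bp wide with 5 words, of which 1 is in the stretch printed above. A further peak of 122 bp lay at chr10:80248948-80249069 with none. Both peaks touch transfer RNA genes in the RefSeq annotation, namely the phenylalanine tRNA gene n-TFgaa3, covered over all its 73 bp, and the asparagine tRNA gene n-TNgtt7, covered over 37 of 74 bp. They were the only 2 of 75 member peaks to do so, beside 6 of 8513 Runx3-list promoter peaks of all genes. Which of these genes a peak belongs to was not tested. The smaller peak reads as follows, with no word to capitalise.
Ndufs7 upstream peak: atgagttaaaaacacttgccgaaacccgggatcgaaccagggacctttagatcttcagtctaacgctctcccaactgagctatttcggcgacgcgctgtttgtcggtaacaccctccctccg

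Around the core, complex I carries accessory subunits that stabilise it and serve its assembly. Of 30 such genes by symbol, 21 had a Runx3-list peak (70%, 52.1% to 83.3%), beside 36.2% of all genes. A Brn3a-list peak was found at 9 (30%, 16.7% to 47.9%), beside 20.7%, and this interval took in the background. Peaks of both lists were found at Ndufa6, Ndufa11, Ndufb2, Ndufb5, Ndufc2, Ndufs4 and Ndufs5. At Ndufs4, whose loss causes fatal encephalopathy in mice, the Runx3-list peak had 2 RBS words and shared 77 bp with the nearer of 2 Brn3a-list peaks. At Ndufc2 the peaks were nearly the same stretch, each 130 bp wide and sharing 129 bp. At Ndufs5 the centres were 4 bp apart. The widest Brn3a-list peak at any member, 393 bp, lay at Ndufb5 and covered the whole Runx3-list peak of 288 bp. Brn3a alone was found at Ndufa9, at the joint of the membrane and matrix arms, with a peak of 158 bp, and at Ndufb4, of the membrane arm, with one of 192 bp.

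No promoter peak of either list was found at the accessory genes Ndufa1, Ndufa7, Ndufa10, Ndufb6, Ndufb7 and Ndufc1. The same held for Ndufa4l2, counted with them by its symbol alone. Ndufab1, the mitochondrial acyl carrier protein, and Ndufa13 each had a Runx3-list peak with 2 RBS words. The peak of Ndufa13 was centred 946.5 bp inside the gene, and 572.5 bp from a start of Tssk6, so it lies at the edge of the promoter window. Of the 8 Ndufaf assembly factors, 5 had a Runx3-list peak, Ndufaf5 and Ndufaf8 had both, and Ndufaf1, Ndufaf3 and Ndufaf6 had neither.

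Complex II oxidises succinate and is the only complex with no mitochondrially encoded subunit. Its 2 catalytic genes had a Runx3-list peak and its 2 membrane anchor genes had no promoter peak. The flavoprotein gene Sdha had a peak of 164 bp centred 18.5 bp downstream of a start. The iron-sulphur gene Sdhb had one of 159 bp, 94 bp downstream. None held an RBS word, and Sdhc and Sdhd had no peak of either list. No Brn3a-list promoter peak was found at the 4 genes, for which the interval reaches 49%.

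Complex III passes electrons from ubiquinol to cytochrome c. Of 9 genes, 6 had a Runx3-list peak and 4 a Brn3a-list peak, and all 4 had both. The centres of both lists lay 9.5 bp apart at Uqcrfs1, the Rieske iron-sulphur protein, where 239 bp were shared. They lay 33.5 bp apart at Uqcrc2, a core protein. At Uqcrq, a small subunit of the membrane part, the peaks shared 73 bp and were centred 760 bp (Runx3) and 814.5 bp (Brn3a) upstream of the start. A second Runx3-list peak of 359 bp, with no RBS word, was centred 169 bp upstream. At Uqcrc1, the other core protein, the peaks of the lists lay 10.7 kb apart at different annotated starts, with the Runx3-list peak 4.5 bp from the start of the gene. Cyc1, which encodes cytochrome c1, Uqcrb and Uqcr11 had neither. Cycs, the mobile carrier cytochrome c that also triggers cell death when released, had peaks of both lists. Its Runx3-list peak of 287 bp held 3 RBS words and shared 220 bp with the Brn3a-list peak of 221 bp.

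Complex IV reduces oxygen, and its nuclear subunits surround a core made in mitochondria. Ndufa4, named for complex I, is counted here. Of 19 genes, 11 had a Runx3-list peak (57.9%, 36.3% to 76.9%), 5 a Brn3a-list peak and 3, Cox5b, Cox6c and Cox7a2, had both. At Cox6c the peaks were 153 bp (Brn3a) and 83 bp (Runx3) wide and did not overlap. At Cox5b, a zinc-binding subunit, they shared 47 bp, the smallest overlap of any member. Ndufa4 and Cox4i1, the broad form of a regulatory subunit, each had 2 Runx3-list peaks. Cox5a and Cox7b had no peak.

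Several complex IV subunits exist as broad and as tissue-restricted isoforms, and both kinds were counted. Of the restricted genes, Cox6a2, Cox7a1 and Cox8b are known from heart and skeletal muscle, Cox4i2 and Ndufa4l2 from lung or hypoxia, and Cox6b2, Cox7b2 and Cox8c from testis. Among these 8, 2 had a Runx3-list peak (25%, 7.15% to 59.1%) and 1 a Brn3a-list peak. Among 8 broad paralogues (Cox6a1, Cox7a2, Cox7a2l, Cox8a, Cox4i1, Ndufa4, Cox6b1 and Cox7b), 6 had a Runx3-list peak (75%, 40.9% to 92.9%) and 2 a Brn3a-list peak. The intervals overlapped, and the difference was not tested. None of the restricted genes was CpG-rich, whereas 6 of the broad ones were, and the 25% stands beside 19.1% of all genes that were not CpG-rich. Cox4i2 had a Runx3-list peak of 262 bp with 3 RBS words, centred 130.5 bp upstream. Cox6b2 had one of 71 bp with no word. Cox8b had a Brn3a-list peak of 79 bp, 771 bp upstream, and its broad paralogue Cox8a had a Runx3-list peak instead. At the Cox6a pair, Cox6a1 had a Brn3a-list peak of 98 bp and Cox6a2 had none.

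Complex V makes ATP, and its genes had the highest share of Runx3-list peaks among complexes I to V. Of 17 genes, 15 had one (88.2%, 65.7% to 96.7%) and 6 a Brn3a-list peak (35.3%, 17.3% to 58.7%). All 5 genes of the catalytic F1 head and central stalk had a Runx3-list peak. These were Atp5a1 with 3 RBS words, Atp5b, which makes ATP, with none, Atp5c1, Atp5d and Atp5e. Atp5c1 and Atp5d, parts of the rotating stalk, had both lists. Of the 3 genes for the rotating c-ring, whose mature proteins are identical, Atp5g1 and Atp5g2 had both lists and Atp5g3 had neither. The Runx3-list peak of Atp5g1, at 481 bp, was the widest of the members. It overlapped the Brn3a-list peak at its upstream end, with centres 146.5 bp apart.

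Of the 4 peripheral stalk genes, Atp5f1, Atp5h and Atp5o had a Runx3-list peak and Atp5j a Brn3a-list peak alone. The Runx3-list peak of Atp5f1 measured 407 bp but lay 742 bp from its start and 12 bp from a start of Wdr77. The Brn3a-list peak of Atp5j, 242 bp wide, lay 538.5 bp from its start and 39.5 bp from a start of Gabpa, which runs in the other direction and encodes the DNA-binding subunit of GABP. Among the 5 other genes (Atp5j2, Atp5k, Atp5l, Atp5mpl and Atp5s), all had a Runx3-list peak, and Atp5l, a membrane subunit, had both. At Atp5l the Runx3-list peak was 404 bp wide with 3 RBS words and covered all 106 bp of the Brn3a-list peak.

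At the genes with peaks of both lists, the peaks were mostly at the same place. In 22 of 24 such members (91.7%, 74.2% to 97.7%) they shared at least 1 bp, beside 89.6% of all genes with both. The exceptions were Cox6c and Uqcrc1. Over the 22 pairs the median overlap was 147 bp and the median distance of centres 34.25 bp, beside 166 bp and 33.5 bp over all such promoter peaks of the Runx3 list. A peak that shares at least 1 bp with a peak of the other list is called co-bound. Of Runx3-list promoter peaks at members, 22 of 75 were co-bound (29.3%, 20.2% to 40.4%), beside 31.9% of all promoter peaks. Of Brn3a-list promoter peaks at members, 22 of 30 were co-bound (73.3%, 55.6% to 85.8%), beside 58%. The second interval took in the background by a small margin.

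**Figure D3:**
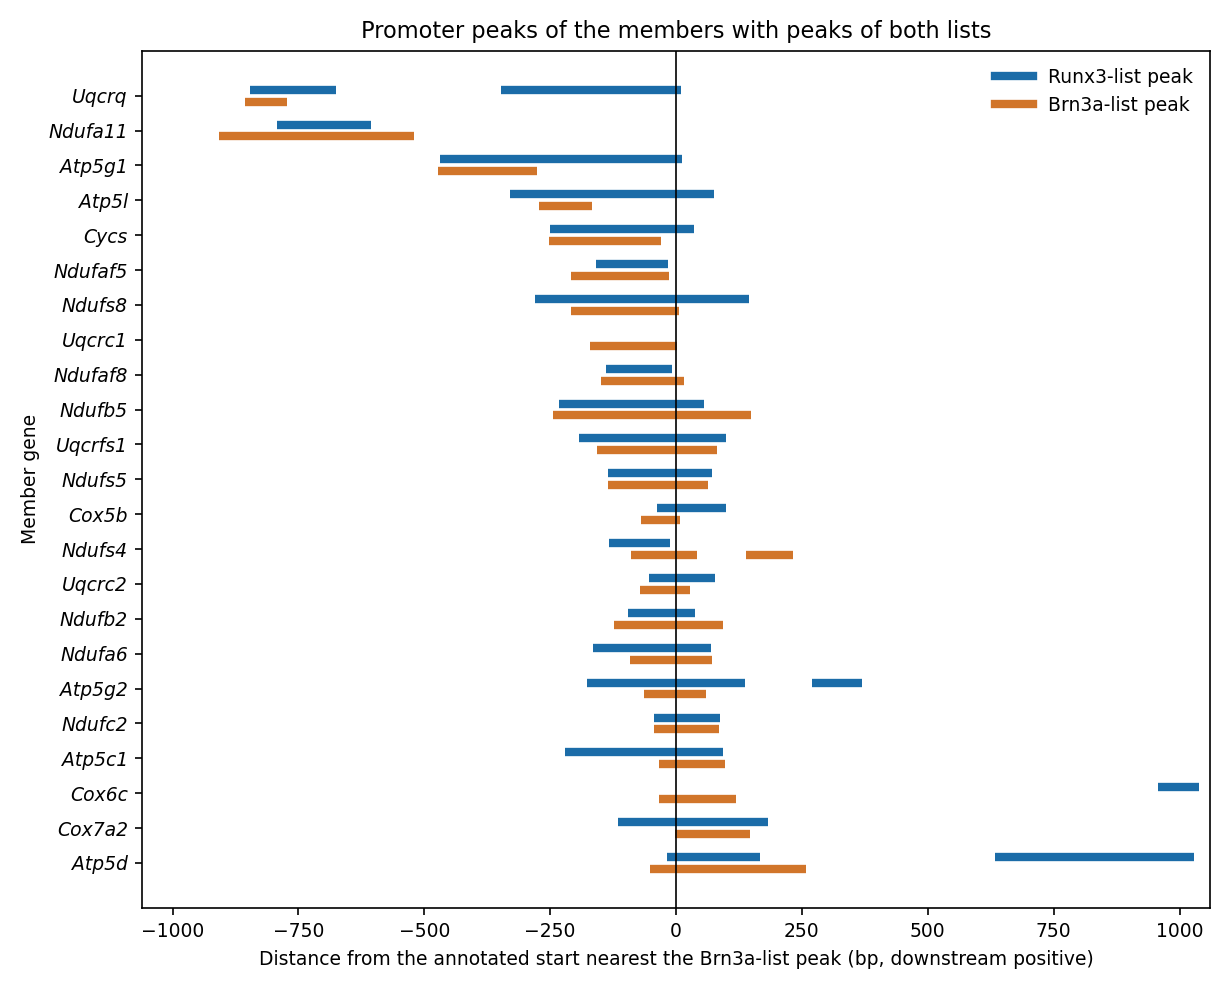
Runx3-list (blue) and Brn3a-list (orange) peaks of 23 members with both, as bars to scale along the distance in bp from the annotated start nearest the Brn3a-list peak. The bars overlap at 21 genes, all but Cox6c and Uqcrc1. The Runx3-list peak of Uqcrc1 lies outside the axis.

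Peak positions were close to the annotated start. Of the Runx3-list member peaks, 64 of 75 (85.3%) were centred within 200 bp of a start and 57 (76%) upstream of it, with a median position of -48 bp (upstream is negative). Over all promoter peaks 76.6% were within 200 bp and 69.9% upstream. For the Brn3a list, 24 of 30 (80%) were within 200 bp, beside 69.7%, and the median position was -36.75 bp. The median width was 186 bp for Runx3 (range 64 to 481 bp), beside 199 bp over all promoter peaks, and 163.5 bp for Brn3a (78 to 393 bp), beside 177 bp. Most members had a single Runx3-list peak (59 genes), and 8 had 2. Besides Atp5g1, the widest Runx3-list peaks were those of Ndufs8, Atp5f1, Atp5l and Atp5d (395 bp). Wide Brn3a-list peaks lay at Ndufb5, Ndufa11 (389 bp), Atp5d (309 bp) and Atp5j.

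**Figure D4:**
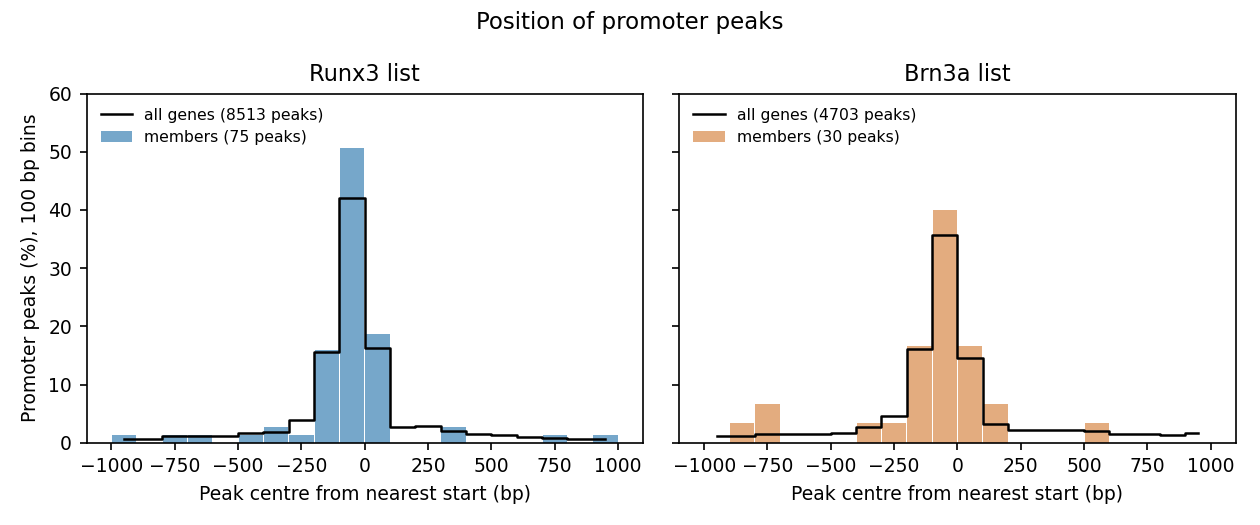
Percent of promoter peaks by distance of their centre from the nearest annotated start, in bins of 100 bp, for members (bars) and all genes (line), in the Runx3 list (left) and the Brn3a list (right). The bin just upstream of the start holds 50.7% of the 75 Runx3-list member peaks and 40% of the 30 Brn3a-list ones, beside 42.1% and 35.7% over all genes.

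Many of these peaks lie between neighbouring genes, so that they cannot be credited to the member alone. Of 67 members with a Runx3-list promoter peak, 28 (41.8%, 30.7% to 53.7%) had one that also fell in the promoter window of another protein-coding gene, beside 22.2% of all genes with such a peak. For Brn3a these were 7 of 29 (24.1%, 12.2% to 42.1%), beside 19.3%. All 30 shared Runx3-list peaks had a neighbour on the opposite strand, and 13 lay closer to the neighbour's start than to the member's. Examples were Ndufb3 with Fam126b (13 bp from its start), Ndufaf5 with Esf1 (2.5 bp) and Atp5c1 with Kin, a DNA-binding protein gene (50 bp). Ndufb5 and Ndufs6 shared a peak with the mitochondrial ribosomal protein genes Mrpl47 and Mrpl36. At Ndufa11 both peaks lay closer to Vmac.

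The factors' own words were found beneath part of these peaks, in shares near or below those of other promoters. RBS words, as deposited, were found in 37 of 75 Runx3-list member peaks (49.3%, 38.3% to 60.4%), beside 53.1% of all promoter peaks of the list. More than 1 word was found in 11 (14.7%, 8.39% to 24.4%), beside 21.1%. There were 26 peaks with 1 word, 6 with 2, 4 with 3 (Cycs, Cox4i2, Atp5l and Atp5a1) and 1 with 5. By complex a word was found in 15 of 29 peaks in complex I (34.4% to 68.6%) and 0 of 2 in complex II (up to 65.8%). It was found in 3 of 7 in complex III (15.8% to 75%) and 5 of 14 in complex IV (16.3% to 61.2%). In complex V it was 11 of 17 (41.3% to 82.7%), at the assembly factors 2 of 5 and at Cycs 1 of 1. The interval of each complex took in the 53.1% of all promoter peaks. Co-bound member peaks held a word in 13 of 22 (59.1%, 38.7% to 76.7%) and the others in 24 of 53 (45.3%, 32.7% to 58.5%). Over all promoter peaks these shares were 48% and 55.5%.

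The Brn-family motif V$BRNF was deposited as present in 2 of 30 Brn3a-list member peaks (6.67%, 1.85% to 21.3%), beside 18.8% of all promoter peaks of the list. The interval took in the background. These were the peaks of Atp5d and Ndufa11, which were both co-bound and among the widest of the Brn3a list. The word TTAATGA was absent from 200 bp around all 30 centres, where a count of 0 allows up to 11.4% by the Wilson interval, and 2.4% of all promoter peaks had it. ATTAAT was found at 1, the peak of Ndufa11, beside 3.76% of all. That word is not in the stretch printed above, which leaves out untranslated exons.

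Words known from respiratory promoters were looked for in 200 bp around the peak centres. In the Runx3 list the YY1 word was found at 15 of 75 member peaks (20%, with an interval that starts above the background and ends at 30.4%), beside 5.04% of all promoter peaks. The ETS word was found at 24 (32%, 22.5% to 43.2%), beside 21.2%, and the NRF1 word at 13 (17.3%, 10.4% to 27.4%), beside 9.64%. At least 1 of these was found at 44 (58.7%, 47.4% to 69.1%), beside 32%. All of these intervals lay above the background, and the differences were not tested. In the same windows the RBS words were found at 34 (45.3%), beside 49.6%, and the CCAAT word of NF-Y at 23 (30.7%), beside 37.3%. The GGGCGG word of Sp factors was found at 32 (42.7%, 32.1% to 53.9%), beside 60.1%. The TATAAA word was found at 3 (4%), beside 2.62%.

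The same words were also found beneath Brn3a-list peaks and in member promoters without a peak. In the Brn3a list the YY1 word was found at 5 of 30 member peaks (16.7%, 7.34% to 33.6%), beside 4.23%, and the NRF1 word at 6 (20%, 9.51% to 37.3%), beside 9.27%. The ETS word was found at 7 (23.3%, 11.8% to 40.9%), beside 16.8%, and its interval took in the background. Without regard to peaks, the 300-base promoters of the 95 members held the ETS word in 30.5%, the NRF1 word in 15.8% and the YY1 word in 12.6%, beside 17.4%, 5.97% and 6.19% of all promoters. For all CpG-rich promoters these shares were 30.4%, 13.1% and 6.92%. Members without a Runx3-list peak held the ETS word in 11 of 28 promoters and those with one in 18 of 67. For the NRF1 word these counts were 4 of 28 and 11 of 67, and for the YY1 word 4 of 28 and 8 of 67. The intervals with and without a peak overlapped for each word.

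The positions of these words follow the peaks, since only the bases around peak centres were searched, and no share over all promoter peaks was computed for them. Of 15 YY1 words, all at different genes, 8 were centred within 50 bp of a start and 10 were on the gene's strand. The nearest lay 3 bp downstream at Ndufaf8 and Ndufb8, 5 bp at Uqcrc1 and 9 bp at Ndufs6, and 3 bp upstream at Ndufs4 and 4 bp at Atp5j2. The farthest lay 837 bp downstream at Atp5f1 and 304 bp at Atp5g2. Of 27 ETS words, 14 were within 50 bp of a start and 10 on the gene's strand. Of 16 NRF1 words, 9 were within 50 bp of a start. They were found at 13 genes, among them Sdha, Ndufs5, Uqcrc1 and Ndufs7. At Ndufs7 the word was in the bases around the peak of 122 bp, and not around the peak with 5 RBS words.

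**Figure D5:**
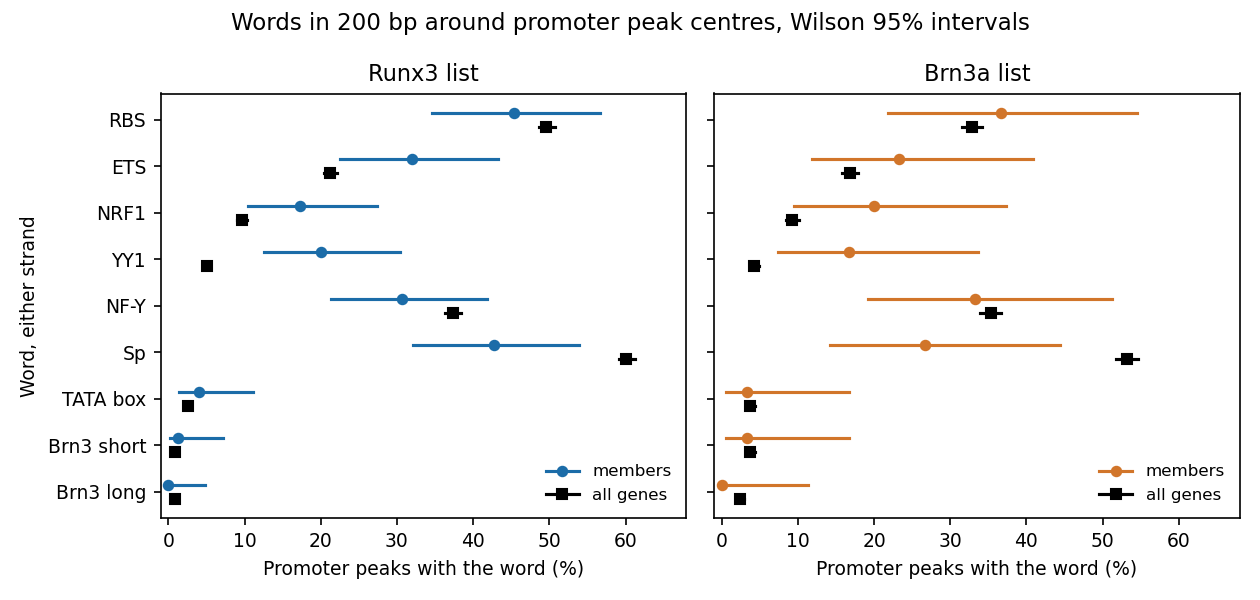
Percent of promoter peaks with each word on either strand within 200 bp around the peak centre, for members (coloured circles) and all genes (black squares), with Wilson 95% intervals, in the Runx3 list (left, 75 member peaks) and the Brn3a list (right, 30). In the Runx3 list the member circle lies above the square for ETS, NRF1 and YY1 words and below it for the Sp word.

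Some peaks lay in the genes outside promoters, for which no share over all genes was computed. Runx3-list peaks in gene bodies and outside every promoter were found at 6 members, as 9 peaks, and Brn3a-list peaks at 7 members, as 16 peaks. Of these, 4 and 6 were counted for Atp5o, which has a second, overlapping gene record of 243 kb, and none of them lay in its record of 6.47 kb. Other Brn3a-list peaks were found in Ndufaf2 (3), Ndufa9 (2), Cox7b2 (2), Ndufaf6, Ndufb7 and Sdhc. Other Runx3-list peaks were found in Ndufab1, Ndufaf2, Ndufs4, Ndufv2 and Sdhb.

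The mitochondrial genome encodes the remaining 13 subunits of complexes I, III, IV and V. The Runx3 list holds 2 peaks there, from base 1 to 9424 and from 9502 to 16299. They leave 77 bases between them, cover 99.5% of the sequence up to the last peak's end and touch all 13 protein-coding genes. They hold 14 and 11 RBS words. The Brn3a list holds 0 peaks on this genome. A peak of that length gives no position, and these peaks were left out of the counts.

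Genes that build or regulate the complexes were looked up in the same way. Of 46 other assembly factors, 32 (69.6%, 55.2% to 80.9%) had a Runx3-list and 17 (37%, 24.5% to 51.4%) a Brn3a-list promoter peak. Both were found at 15 (32.6%, 20.9% to 47%). Over all genes the shares were 36.2%, 20.7% and 14.8%, and over all CpG-rich genes 60.5%, 33.6% and 25.9%. Of the 46 genes, 31 are CpG-rich, and all 3 intervals took in the shares of CpG-rich genes. The 15 were Uqcc1, Uqcc2, Bcs1l and Lyrm7 for complex III, Cox11, Cox14, Cox15, Cox18, Coa6 and Coa7 for complex IV, Atpaf2 for complex V, and Foxred1, Tmem126a, Tmem126b and Tmem186 for complex I. Cox15, which makes haem A, had 5 RBS words in 2 Runx3-list peaks, and Bcs1l, which inserts the Rieske protein, had 3 in 1. V$BRNF was present in a peak of Uqcc2 and of Atpaf2.

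Among 14 regulators of mitochondrial genes, 10 had a Runx3-list (71.4%, 45.4% to 88.3%) and 9 a Brn3a-list promoter peak (64.3%, 38.8% to 83.7%). Both lists had a peak at 6 (42.9%, 21.4% to 67.4%), and 11 of the 14 are CpG-rich. The interval for Brn3a lay above the 33.6% of CpG-rich genes. Those for Runx3 and for both lists took in the shares of such genes, 60.5% and 25.9%. Nrf1 and Esrra, which encode an activator of respiratory genes and an oestrogen-related receptor, had Runx3-list peaks alone. Gabpa, Gabpb2 and Yy1 had Brn3a-list peaks alone, and Gabpb1, the usual partner of Gabpa, had both, with 4 RBS words. Of the PGC-1 family of coactivators, Ppargc1a had a Runx3-list peak, Pprc1 had both and Ppargc1b neither. Sp1 had 2 peaks of each list. Tfam, which packages and activates mitochondrial DNA, Tfb1m and the mitochondrial RNA polymerase gene Polrmt had both, and Tfb2m a Runx3-list peak alone. The Gabpa peak is the one counted for Atp5j.

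Ribosomal protein genes, broadly used as well, were counted in the same way. Of 86 cytosolic ribosomal protein genes, 67.4% (57% to 76.4%) had a Runx3-list and 34.9% a Brn3a-list promoter peak, and of 78 mitochondrial ones 61.5% (50.4% to 71.6%) and 33.3%. Over all genes the shares were 36.2% and 20.7%, and over all CpG-rich genes 60.5% and 33.6%. CpG-rich were 61 of the cytosolic and 56 of the mitochondrial genes, and the intervals of both groups took in the shares of CpG-rich genes. RBS words were found in 44.6% and 48.2% of their Runx3-list promoter peaks, beside 53.1% of all promoter peaks. V$BRNF was found in 2 of 31 and 4 of 29 of their Brn3a-list peaks, beside 18.8%. In 200 bp around Runx3-list centres, the YY1 word was found in 7.69% and 14.3%, where the members had 20%. The NRF1 word was found in 6.15% and 21.4%, where the members had 17.3%, and the ETS word in 44.6% and 46.4%, where they had 32%. The cytosolic genes thus lay nearer to all promoter peaks than to the members for YY1 and NRF1 words. The intervals of these shares overlapped those of the oxidative phosphorylation genes, and the differences were not tested.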

How the data were processed

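CUT&RUN libraries of sorted TrkC neurons had been processed by the authors into 1 merged peak list for each factor. The submitters' processing notes name cutadapt, Bowtie, MACS2 and the GRCm38 (mm10) build, with no role or order, and versions and settings were not given there. The per-peak counts of RBS words and of V$BRNF were taken as deposited. Per the file headers, a peak had to be found in at least 2 of 3 Runx3 or 2 of 4 Brn3a libraries. The deposited RBS count equalled the number of words found in the genome in all 25883 nuclear Runx3-list peaks. The table for H3K27Ac held the same rows as the Runx3 table and was not used, the serum library was not analysed here, and 0 columns of unmapped samples were found.

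Positions were compared with GENCODE M21 coding transcripts and the GRCm38.p6 genome in Python 3.11.15 with numpy 2.4.6 and matplotlib 3.10.9. Peaks with their centre within 1000 bp of a transcript start were assigned to the gene, and peaks were called co-bound from 1 bp of overlap. Ndufa4 was counted in complex IV and Ndufa4l2, by its symbol, in complex I. Shares carry Wilson 95% intervals, which cover the counting of genes or peaks and not the spread between libraries, since replicates had been merged. The labels do not say whether libraries came from separate litters. Read depth is unknown. No test between groups of genes was run. The counting steps were tested on simulated data.

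The members and all gene lists were chosen with earlier results of these data known. Genes named were all of complex II, Cycs, Cyc1, the complex I core, tissue-restricted isoforms, members with a Brn3a-list promoter peak or with neither, the 5 with the widest peaks of each list, the 5 with most RBS words, those with V$BRNF, all regulators and the assembly factors with both lists. Runx3, Pou4f1, Ntrk3, Isl1 and Etv1 were looked up only. Other genes named share a peak or a word with a member and were chosen after their values were seen. Alternatives were promoter windows of 500 and 2000 bp, any overlap with the window, 1 start per gene, wider peaks only, subunits alone, overlap of 50% of the shorter peak and peaks set to 300 bp. CpG content at any start was added after seeing the data. Values of 1 member are counted in the totals but not reported singly or drawn here.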

Additional observations from a re-analysis of the deposited data

How the results depend on the processing

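Of 46 values computed for 7 results under 8 other settings, 43 kept their value within the limits set (1.5 times the main count, or the 95% interval of a share). The other 3 arose when only peaks at least as wide as the median of their list were kept. Members with a Runx3-list, Brn3a-list or both kinds of promoter peak then numbered 37, 14 and 9 of 95, in place of 67, 29 and 24. Fewer peaks entered by construction, and the shares of all genes fell too, to 23.8%, 11.9% and 7.5%. For Brn3a and for both lists the members then lay nearer to all genes than in the main counts. No interval was computed for these counts, so an excess of members there was not shown for wider peaks. With promoter windows of 500 or 2000 bp the Runx3 count was 64 or 68, beside 34.1% or 38.2% of all genes, and with 1 start per gene it was 63, beside 33.2%. The 2 values added after seeing the data, for CpG content at any start, stayed within the limits. For Runx3 the interval then lay above the share of all genes so classed, whereas in the main setting it took that share in.

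No paired analysis was possible because the lists hold no value per library, and for the same reason leaving out each library in turn was not run. Peak height, read depth and a serum background were not analysed. A list of positions gives no strength of binding and no transcript level.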
